A study of Mus musculus with 18 samples.

Results

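The phagocyte NADPH oxidase moves electrons from NADPH across a membrane onto oxygen and so makes superoxide. Its membrane part, flavocytochrome b, is a pair of subunits encoded by Cybb and Cyba. The cytosolic subunits and a RAC GTPase join it on activation, and in humans inherited loss of a subunit causes chronic granulomatous disease. The complex is best known in neutrophils, monocytes and macrophages, and its transcripts build up as myeloid cells mature.

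The 7 genes described here were fixed by name, as the rows of the deposited table whose gene IDs correspond to Cybb, Cyba, Ncf1, Ncf4, Rac1, Rac2 and Hvcn1, out of 54347 genes in all. All 7 passed the filter on low counts in edgeR. The samples were leukemia stem cells, sorted 30 days after leukemia induction from bone marrow of mice of the C57BL/6JRj strain, at 7000 cells per mouse. The mutant group held 5 mice with the genotype Prx1-Cxcl12-mutant and the control group 4 mice with the genotype Prx1-Cxcl12-wild type, and every mouse gave 2 technical libraries. The series title puts the question as how the marrow niche acts on redox and energy balance in these cells. Both groups carried the leukemia. The sources used here do not give its driver, the sorting markers, the exact alleles, or the age and sex of the mice.

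Prx1 promoter lines act in limb mesenchyme, from which stromal cells of the long bones arise, and CXCL12 is a chemokine that such stromal cells release. The allele behind the genotype name could not be checked in these libraries, where Cxcl12 had at most 4 counts in a mutant mouse and 1 in a control mouse. Total counts ran from 15959104 to 25485975 per mutant mouse and from 11766553 to 16785063 per control mouse. The 7 markers of leukemia stem and progenitor cells (among them Hoxa9, Meis1 and Myb) all passed the filter, summed to 553 to 710 CPM (counts scaled by the TMM-adjusted total of each mouse) in mutants and 636 to 904 CPM in controls, and 6 of the 7 were below 0 in log2 fold change. Kit among them was lower in every mutant than in any control, at 19.01 CPM in mutants and 25.6 CPM in controls on average (edgeR adjusted p = 0.254). Of all tested genes, 4% had groups that did not overlap, in either direction. Of the T and NK list Cd3g had 0 counts, Cd3e at most 2 and Cd3d at most 7 in a mouse, although Nkg7 averaged 135.8 CPM in mutants and 126.2 CPM in controls. The stromal genes Pdgfra and Kitl had 0 counts, although Lepr of the stroma list averaged 0.95 CPM in mutants and 0.66 CPM in controls. The B cell genes Cd79a and Ms4a1 had at most 9 counts in a mouse. However, Cd79b of the B cell list averaged 53.5 CPM in mutants and 61.8 CPM in controls, and Ebf1 5.05 CPM and 5.53 CPM. The primary granule genes Elane, Mpo, Prtn3 and Ctsg summed to 8579 to 17016 CPM in mutants and 9118 to 11162 CPM in controls. All 4 were above 0 in log2 fold change, and 0 were called. In RNA of pooled cells, fewer cells that express a gene and less of its RNA per cell cannot be told apart.

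The promoters of the membrane pair are shown as a description. The transcripts of the pair differed in their spread between mice, and a part of promoter sequence in this was not tested. Each line runs from 100 bases before to 20 bases after the RefSeq start, 5′ to 3′ on the strand of the gene, on GRCm38.p6. For Cybb that start is 9469324, where a protein-coding GENCODE transcript also starts, while another GENCODE transcript starts farther upstream, at 9487771, and sets the outer end of the gene. Capitals mark matches to any of 4 motifs searched on both strands in the 300 bases that the RefSeq table gives for each gene. These were the PU.1 core GAGGAA, an ETS and IRF composite (GGAA and GAAA with 2 bases between them), the CCAAT box CCAAT and the TATA box TATAAA.
Cybb, minus strand, chrX:9469305-9469424: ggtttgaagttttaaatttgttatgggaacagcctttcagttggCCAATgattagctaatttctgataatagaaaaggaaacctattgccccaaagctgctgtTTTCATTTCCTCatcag
Cyba, minus strand, chr8:122432921-122433040: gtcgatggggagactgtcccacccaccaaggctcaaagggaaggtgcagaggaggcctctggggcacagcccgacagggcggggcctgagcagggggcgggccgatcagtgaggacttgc

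In the Cybb window the CCAAT box lay at -56 to -52 relative to the RefSeq start. The composite lay at 4 to 13 on the opposite strand, overlapped by a PU.1 core at 10 to 15 on that strand too. Of all 32851 RefSeq promoters of the same length, 37.4% held a CCAAT box, 28.3% a PU.1 core, 13.6% a TATA box and 2.72% the composite. No match was found in the 300 bases of Cyba or of Ncf1, which says only that these letters are not in those windows. Promoters of 3 of the 7 genes were in the table. A match is a string of letters and not evidence of a bound factor.

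Cybb encodes the catalytic subunit, which carries the flavin and the hemes. Its level was 45.7, 38.6, 19.5, 23.7 and 27.3 CPM in mutant mice 6, 7, 8, 10 and 12, against 32.1, 67.6, 38.8 and 63.4 CPM in control mice 1 to 4. The groups overlapped, since mutants 6 and 7 stood above control 1 and mutant 6 above control 3, while controls 2 and 4 stood above every mutant. The means were 31.0 ± 10.9 CPM in mutants (SD, n = 5) and 50.5 ± 17.6 CPM in controls (SD, n = 4). The log2 fold change was -0.71 (SE 0.27, 95% interval -1.29 to -0.13), a fold of 0.612. It did not pass after adjustment over all 12973 tested genes (edgeR adjusted p = 0.408). Its unadjusted p was 0.0203, and 4.89% of all tested genes were lower in mutants at an unadjusted p under 0.05.

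The size of the Cybb difference varied with the libraries used. Without control 2 the log2 fold change was -0.54 (unadjusted p = 0.0777), without control 4 it was -0.58 (unadjusted p = 0.0691), and in the first technical libraries alone it was -0.57 (unadjusted p = 0.0600). The second technical libraries alone gave -0.87 (unadjusted p = 0.0061). It was further from 0 without mutant 6 (-0.89, unadjusted p = 0.0054) and without control 1 (-0.87, unadjusted p = 0.0058). Values for markers of maturing neutrophils are set beside it. The 10 late granule markers summed to 445, 391, 240, 429 and 465 CPM in mutants 6, 7, 8, 10 and 12, and to 525, 757, 459 and 985 CPM in controls 1 to 4, with 5 of the 10 above 0 in log2 fold change and 5 below, and 0 called. Controls 2 and 4 were again the highest, while the highest mutant was mutant 12, with Cybb at 27.3 CPM. Camp, the cathelicidin of secondary granules, stood at 139 ± 47.7 CPM in mutants and 386 ± 129 CPM in controls (edgeR adjusted p = 0.115). Its groups did not overlap, as in 4% of all tested genes. Camp had the highest mean of the 10 in both groups, so it and the sum are not separate results. Ltf, the lactoferrin of the same granules, had the opposite sign, at 13.5 ± 4.43 CPM in mutants and 4.82 ± 3.67 CPM in controls (adjusted p = 0.259). The 10 monocyte and macrophage markers summed to 1562, 1436, 1352, 1524 and 770 CPM in mutants 6, 7, 8, 10 and 12. In controls 1 to 4 they summed to 746, 1484, 1049 and 1510 CPM. Here too controls 2 and 4 were the highest controls, and mutant 6 was the highest mutant. However, mutants 8 and 10, with the lowest Cybb of all mice (19.5 and 23.7 CPM), had monocyte and macrophage sums of 1352 and 1524 CPM. Ly6c2 made up most of the sum, and 7 of the 10 markers were below 0. Of these, Adgre1, the F4/80 antigen, was lower in every mutant, at 27.8 ± 3.64 CPM in mutants and 40.1 ± 4.92 CPM in controls (adjusted p = 0.176). No marker of either list was at 0 in all mice, and Retnlg of the late granule list was at 0 in a control. The part of these cell populations in the Cybb level was not tested.

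**Figure D1:**
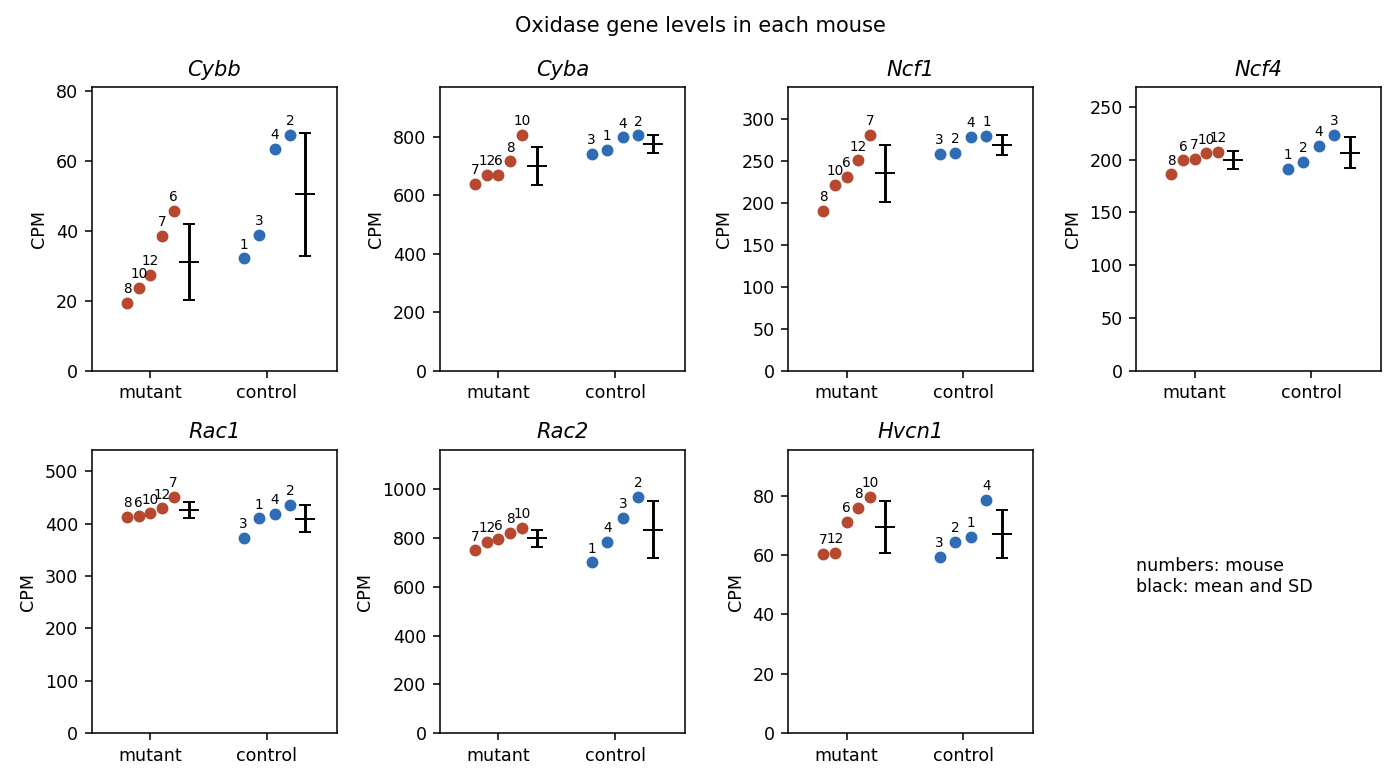
CPM (vertical axes, from 0) of the 7 oxidase genes in each mouse, mutants left and controls right, with points numbered by mouse and black bars for mean and SD. Cybb spread from 19.5 to 67.6 CPM over the 9 mice, and the groups overlapped for all 7 genes.

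Cyba encodes the small membrane partner that stabilises the catalytic subunit. It had 670, 640, 716, 808 and 669 CPM in mutants 6, 7, 8, 10 and 12, against 755, 805, 742 and 799 CPM in controls 1 to 4. Of the mutants, 4 lay below all controls and mutant 10 above all of them. The log2 fold change was -0.15 (SE 0.09, 95% interval -0.34 to 0.05, edgeR adjusted p = 0.619).

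Since the partners form a heterodimer, their ratio was taken within each mouse, where total depth and scaling drop out. Mutants 6, 7, 8, 10 and 12 had 6.82, 6.03, 2.72, 2.94 and 4.09 Cybb counts per 100 Cyba counts, against 4.26, 8.40, 5.24 and 7.94 in controls 1 to 4. The ratio was lowest in mutants 8, 10 and 12 and highest in controls 2 and 4, with mutants 6 and 7 among the controls. The log2 ratio was -4.56 ± 0.60 in mutants and -4.01 ± 0.47 in controls (SD, n = 5 and 4). Its difference of -0.56 (SE 0.36) did not pass a 2-sided exact permutation test over mice (p = 0.167, and 0.333 adjusted over the 2 ratios tested), in a design whose smallest possible p is 0.00794.

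**Figure D2:**
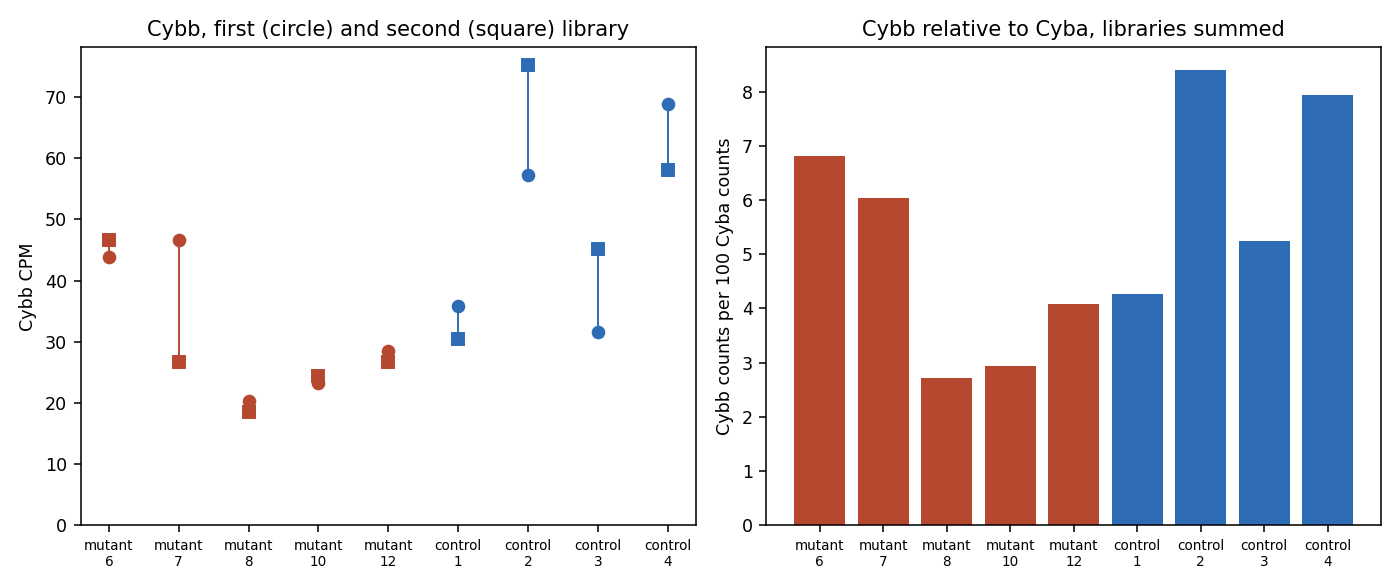
Left, Cybb CPM in the first (circle) and second (square) technical library of each mouse. Right, Cybb counts per 100 Cyba counts with libraries summed. Mutants (red) are left of controls (blue), the libraries of mutant 7 lie furthest apart at 46.7 and 26.7 CPM, and the ratio runs from 2.72 to 8.40.

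Ncf1 encodes the organizer subunit, whose phosphorylation opens it to bind Cyba protein. Its level was 231, 282, 191, 222 and 251 CPM in mutants 6, 7, 8, 10 and 12, against 280, 260, 259 and 279 CPM in controls 1 to 4. Mutant 7 stood above all controls and the other 4 mutants below all of them. The means were 235 ± 33.8 CPM in mutants (SD, n = 5) and 270 ± 11.8 CPM in controls (SD, n = 4). The log2 fold change was -0.20 (SE 0.11, 95% interval -0.43 to 0.04, adjusted p = 0.575), so a fold down to 0.741 lay within the interval.

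Ncf4 encodes the subunit that binds phosphatidylinositol phosphate on phagosomes. It was held in a narrow band, at 199, 201, 186, 206 and 207 CPM in mutants 6, 7, 8, 10 and 12 and at 191, 198, 224 and 213 CPM in controls 1 to 4. The 2 groups covered nearly the same range. The log2 fold change was -0.05 (SE 0.08, 95% interval -0.23 to 0.13, adjusted p = 0.874), which spans folds of 0.854 to 1.10.

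Rac1 and Rac2 encode GTPases that switch the complex on. Rac2 is the blood cell form and the main partner of the oxidase in neutrophils, while Rac1 is found in most cells. Rac1 had 414, 451, 413, 420 and 429 CPM in mutants 6, 7, 8, 10 and 12, against 410, 436, 373 and 419 CPM in controls 1 to 4. It spread little, with a coefficient of variation of 3.62% over mutants and 6.41% over controls, and its log2 fold change was 0.05 (SE 0.08, 95% interval -0.12 to 0.23, adjusted p = 0.853). Rac2 had 794, 749, 821, 841 and 783 CPM in the mutants in that order, against 699, 967, 883 and 785 CPM in controls 1 to 4. The controls enclosed the mutants on both sides. Its log2 fold change was -0.06 (SE 0.10, 95% interval -0.29 to 0.16, adjusted p = 0.866).

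The Rac2 to Rac1 ratio was compared in the same way as that of the membrane pair. Mutants 6, 7, 8, 10 and 12 had 192, 166, 199, 200.4 and 182 Rac2 counts per 100 Rac1 counts, against 171, 222, 236 and 187 in controls 1 to 4. The ranges overlapped, although controls 2 and 3 were above every mutant. The log2 difference was -0.11 (SE 0.12) and did not pass the exact permutation test (2-sided p = 0.349, and also 0.349 adjusted over the 2 ratios).

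Hvcn1 encodes the voltage-gated proton channel that offsets the charge the oxidase moves. Its level was 71.1, 60.4, 75.8, 79.5 and 60.7 CPM in mutants 6, 7, 8, 10 and 12, against 66.0, 64.4, 59.5 and 78.6 CPM in controls 1 to 4. Both groups spanned about the same range. The log2 fold change was 0.05 (SE 0.11, 95% interval -0.19 to 0.29, adjusted p = 0.909).

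Across the 7 genes, 0 were called at an edgeR adjusted p under 0.05, where 0.0694% of all tested genes were. At an unadjusted p under 0.05, Cybb alone of the 7 passed, where 9.85% of all tested genes did in either direction. The groups overlapped for all 7, where 4% of all tested genes did not overlap. DESeq2 also called 0 of the 7, with Cybb at an adjusted p of 0.228. In log2 fold change 5 of the 7 were below 0 (median -0.06), against 48.3% of all tested genes (median 0.0089). These counts do not set the 7 genes apart from the background.

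**Figure D3:**
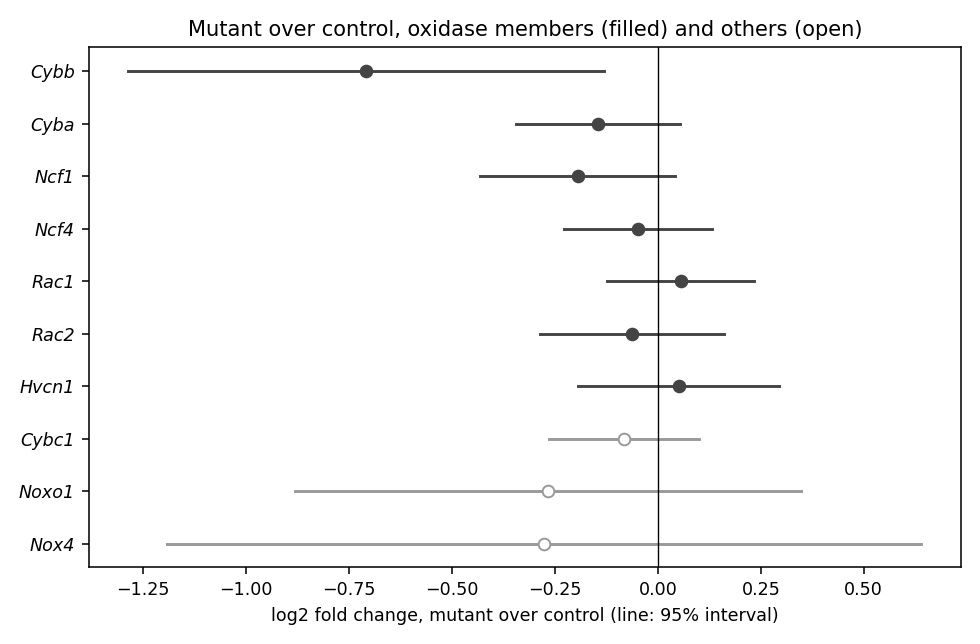
Log2 fold change of mutant over control (horizontal axis) with its 95% interval, for the 7 oxidase genes (filled) and 3 other oxidase or NOX genes that could be tested (open). Cybb had the lowest value, at -0.71, and was the only gene shown whose interval did not reach 0.

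Variation between mice was uneven among the subunits. The coefficient of variation of Cybb was 35.1% over mutants and 34.9% over controls, while that of the other 6 genes lay between 3.62% and 14.4% over mutants and between 4.04% and 13.96% over controls. Deviations of log2 CPM from the group mean reached 0.63 in mutant 6 and -0.60 in mutant 8 for Cybb. In these same mice Cyba deviated by -0.06 and 0.04. The technical libraries of a mouse differed most for Cybb in mutant 7, by 1.75-fold (46.7 and 26.7 CPM), and in controls 2 and 3 stood at 57.3 and 75.3 CPM and at 31.6 and 45.2 CPM. For Cybb the SD between libraries of a mouse was 0.26 on the log2 scale and the SD between mice 0.49. For Cyba the order was the other way, at 0.19 between libraries and 0.10 between mice. The same held for Ncf4 (0.095 and 0.077) and Rac1 (0.088 and 0.071). The SD between mice was taken over means of the 2 libraries, so it still holds part of the spread between libraries.

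Cybb was compared with each of the other 6 genes over the 9 mice, using such deviations so that group means play no part. For this comparison a small count was added before the log was taken. Pearson's r ran from -0.21 for Cyba to 0.51 for Rac1, and Spearman's rho from -0.12 for Hvcn1 to 0.48 for Rac1. For none of the 6 relations did r or rho pass a permutation test over all orders of the 9 mice. The adjusted p-values of that test were 0.730 to 0.856 for r and 0.880 for rho. They are approximate, because the deviations sum to 0 within each group while mice were shuffled across groups. Without mutant 6 and control 2, the mice farthest from the median, r ran from -0.26 for Cyba to 0.70 for Ncf1.

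**Figure D4:**
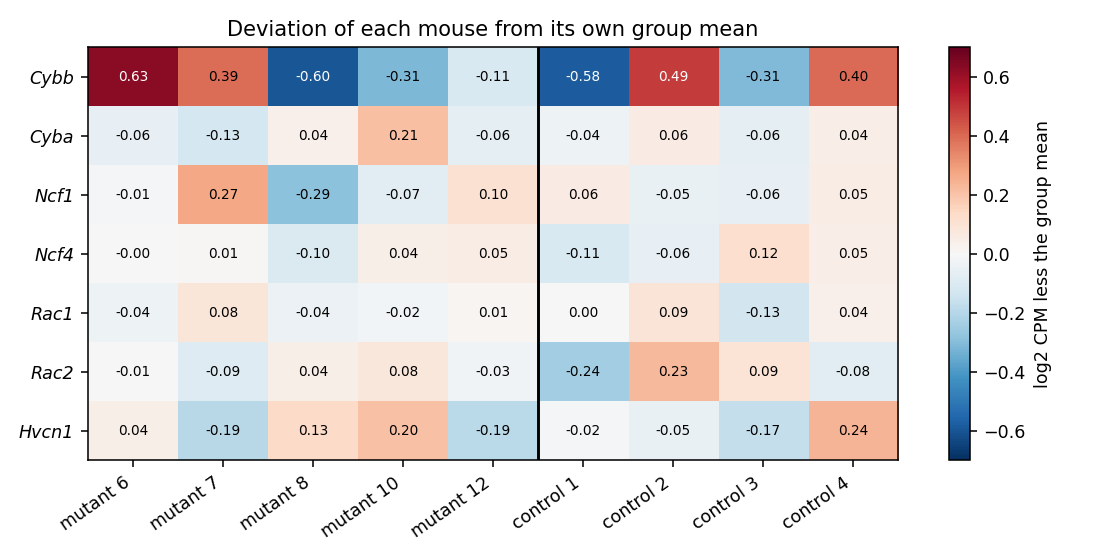
Deviation of log2 CPM from the mean of the own group (color and printed value) for the 7 genes (rows) in each mouse (columns, mutants left of controls). Cybb deviated by up to 0.63 in mutant 6, while Rac1 stayed between -0.13 and 0.09.

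Genes whose deviations were most like those of Cybb came from outside the oxidase. Among 10719 protein-coding genes, the highest Pearson r over 9 mice belonged to Aph1c, a gamma-secretase subunit gene (r = 0.986, rho = 0.95). Next were the glucuronosyltransferase gene Ugt1a7c (0.965), the exocyst gene Exoc6 (0.963), the cytokine signalling suppressor gene Socs5 (0.949) and the keratin gene Krt18 (0.949). Without mutant 6 and control 2, r for these 5 genes lay between 0.932 and 0.979. They are the top of a ranking of all those genes, so no p is given. High rho, and high r without these 2 mice, follow in part from that choice. Between the groups Aph1c averaged 16.3 CPM in mutants and 14.5 CPM in controls (log2 fold change 0.17, SE 0.22), in contrast to the negative value of Cybb, and Krt18 averaged 8.46 CPM in mutants and 11.95 CPM in controls (-0.50, SE 0.19, adjusted p = 0.410).

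Other parts of the complex were looked up next. Cybc1, a chaperone of the membrane pair, averaged 48.9 ± 2.25 CPM in mutants and 51.8 ± 4.78 CPM in controls (SD, n = 5 and 4), a log2 fold change of -0.08 (SE 0.08, adjusted p = 0.778). Noxo1, an organizer subunit of other NOX enzymes, averaged 1.33 ± 0.40 CPM in mutants and 1.59 ± 0.23 CPM in controls (-0.27, SE 0.28, adjusted p = 0.784). Of 10 listed genes that are not among the 7, 3 could be tested, 0 were called, and 3 were below 0 (median -0.27). Nox4, another catalytic subunit, averaged 0.88 CPM in mutants and 1.09 CPM in controls. Nox3, Duox1, Duox2 and Duoxa1 had no count in any mouse, and Nox1 had at most 1 count per mouse, below the floor of 3 counts that limits what can be seen. Nox4 was highest in control 1, at 2.05 CPM.

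Regulators of the RAC switch numbered 16, all tested, with 7 above 0, 9 below 0 and 0 called (median log2 fold change -0.01). The smallest p-values were those of Dock5, an exchange factor for RAC (-0.20, SE 0.10, adjusted p = 0.543), and of Arhgdia, which holds RAC in the cytosol (0.12, SE 0.08, adjusted p = 0.669). Of 15 upstream kinases and lipid enzymes 14 were tested, with 6 above 0, 8 below 0 and 0 called (median -0.03). Pik3cd, a PI3 kinase of white blood cells, averaged 39.0 ± 3.77 CPM in mutants and 46.1 ± 1.81 CPM in controls (-0.24, SE 0.09, adjusted p = 0.403). Prkcd, a protein kinase C that phosphorylates the organizer subunit, averaged 122 ± 6.94 CPM in mutants and 137 ± 4.44 CPM in controls (-0.17, SE 0.08, adjusted p = 0.503). It was lower in every mutant than in any control, and was 1 of 14 tested genes of its list whose groups did not overlap, against 4% of all tested genes.

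Receptors that can trigger the oxidase gave 8 tested genes of 12, with 2 above 0, 6 below 0 and 0 called (median -0.12). The endotoxin receptor gene Tlr4 averaged 2.44 CPM in mutants and 1.56 CPM in controls (0.62, SE 0.32, adjusted p = 0.544), and the integrin chain gene Itgb2 164 CPM in mutants and 198 CPM in controls (-0.28, SE 0.14, adjusted p = 0.545). Fpr1, a receptor for bacterial peptides on mature phagocytes, had at most 7 counts in any mouse. Of the same list, C5ar1 had at most 12 counts and Fpr2 at most 25. By contrast, Fcgr3 averaged 397 CPM in mutants and 450 CPM in controls, and Itgam 70.6 CPM and 76.7 CPM.

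Transcription factors known to act on oxidase genes were all tested, with 4 of 12 above 0, 8 below 0 and 0 called (median -0.11). Cebpe, which drives granulocyte maturation, averaged 146 ± 24.1 CPM in mutants and 195 ± 12.1 CPM in controls (-0.41, SE 0.12, adjusted p = 0.303). Spi1, which encodes PU.1, averaged 141 ± 16.7 CPM in mutants and 163 ± 13.1 CPM in controls (-0.21, SE 0.11, adjusted p = 0.537). Irf8, a partner of PU.1 on composite elements of the kind marked in the Cybb window, averaged 89.0 ± 10.7 CPM in mutants and 92.9 ± 19.02 CPM in controls (-0.06, SE 0.14, adjusted p = 0.911). It was named after its value was seen.

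The supply of NADPH and the handling of the product were the last groups. Of 10 NADPH supply genes 9 were tested, with 5 above 0, 4 below 0 and 0 called (median 0.04). The smallest p-values were those of Idh2 (0.15, SE 0.09, adjusted p = 0.626), a mitochondrial isocitrate dehydrogenase, and Nnt (0.14, SE 0.09, adjusted p = 0.634), the mitochondrial transhydrogenase. Of 8 genes for superoxide and peroxide handling, 4 were above 0, 4 below 0 and 0 called (median 0.03). Sod1, the cytosolic superoxide dismutase, averaged 575 ± 77.1 CPM in mutants and 479 ± 58.2 CPM in controls (0.26, SE 0.12, adjusted p = 0.507). Prdx1, a peroxiredoxin, averaged 8.67 ± 3.38 CPM in mutants and 11.97 ± 1.15 CPM in controls (-0.48, SE 0.26, adjusted p = 0.562).

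**Figure D5:**
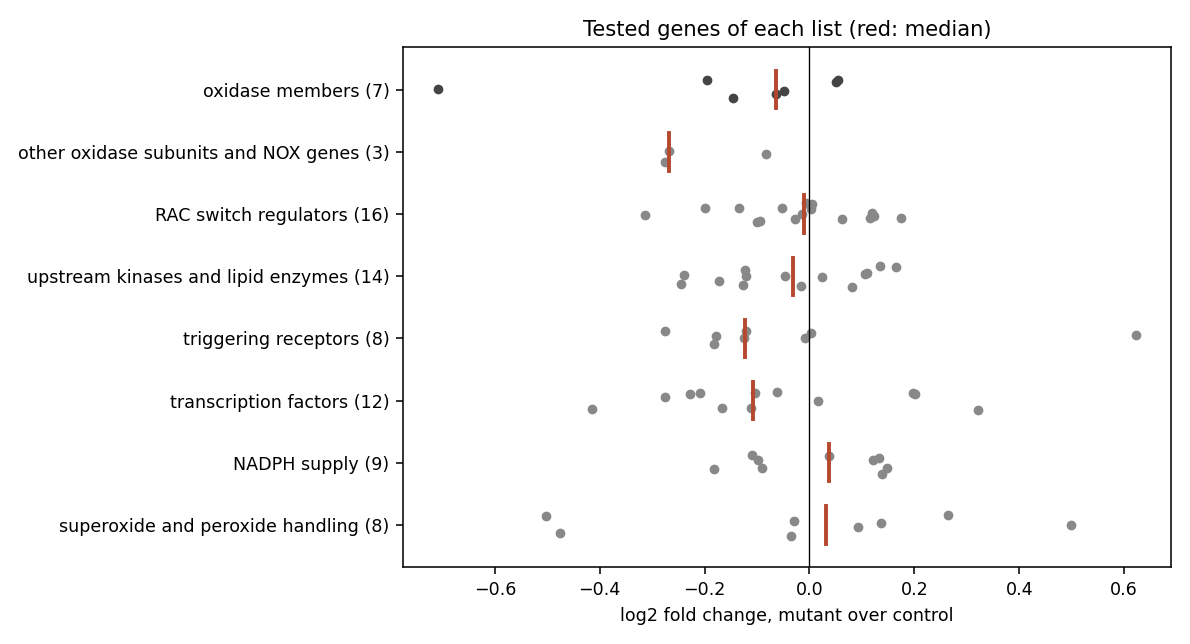
Log2 fold change of mutant over control (horizontal axis) for each tested gene (points, spread vertically only for legibility) of the oxidase genes and of each related list, with the number of genes in brackets and the median in red. Medians lay between -0.27 and 0.04, and no gene shown was called.

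On GRCm38, with GENCODE M21, Cybb (ENSMUSG00000015340) lies on chromosome X from 9435252 to 9487771, Cyba (ENSMUSG00000006519) on 8 from 122424776 to 122432930, and Ncf1 (ENSMUSG00000015950) on 5 from 134220053 to 134229625. Rac1 (ENSMUSG00000001847) and Hvcn1 (ENSMUSG00000064267) are on chromosome 5 too, from 143503634 to 143528036 and from 122206804 to 122242297. Ncf4 (ENSMUSG00000071715) and Rac2 (ENSMUSG00000033220) are both on 15, from 78244801 to 78262580 and from 78559167 to 78572783. Cyba overlaps Gm20388, Ncf1 overlaps Gtf2ird2, Rac1 overlaps Daglb and Gm42502, and Hvcn1 overlaps Tctn1, each on the opposite strand, and with no strand setting stated their reads cannot be fully told apart. Cybb, Ncf4 and Rac2 overlap no annotated gene. Values that were not whole, which arise where reads are divided among features, were found for Rac2 in all 18 libraries, for Cyba and Ncf1 in 13 each, for Rac1 in 11, for Ncf4 in 5, and for Cybb and Hvcn1 in 0.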

How the data were processed

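RNA of sorted cells was profiled by MARS-seq, which reads 3′ ends of polyadenylated transcripts, adapted to bulk samples, per the labels' protocols. The authors deposited estimated counts per gene for 18 libraries. Salmon 1.3, bcl2fastq, FastQC and the build GRCm38 are listed, without role, per the submitters' processing notes. For annotation release, strand setting and molecular identifiers the entry is: not given in the sources used here. Values that were not whole made up 11.3% (tolerance 1e-06).

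The first 18 characters of each ID were matched to GENCODE M21, which named 54094 of 54347 IDs. The 2 technical libraries of a mouse, 3825500 to 15071673 counts each, were summed and rounded. Groups were compared over mice with edgeR 4.0.16 in R 4.3.3 (minimum count 10, TMM, quasi-likelihood F-test, Benjamini-Hochberg over 12973 genes, called under 0.05). CPM used TMM factors. Intervals are 95%. Ratios had 0.5 counts added and an exact permutation test. A floor of 3 counts was 0.118 to 0.255 CPM, for counting error only. Levels of different genes were set against each other only in the 2 ratios and in naming the main gene of a marker sum. The ratios were tested between groups only.

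All 7 genes were named, as were the 2 non-members with the smallest p in each list and the 5 genes most like Cybb. The genes and lists were chosen with earlier results of these data known. Alternatives included DESeq2 1.42.0 and limma 3.58.1. The edgeR, DESeq2 and limma steps were tested on simulated data. The labels give no batch and no pairing of mice. Some genes of these lists are not reported here.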

Additional observations from a re-analysis of the deposited data

Results flagged for a closer look

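Of 36 sets of values (7 oxidase genes, 2 ratios and 9 marker sums, each in mutants and in controls), 3 had a mouse set apart from the rest of its group by Dixon's test, and chance flags about 5% of such sets. All 3 were marker sums. The monocyte and macrophage sum was 770 CPM in mutant 12, with the next mutant at 1352 CPM. The dendritic sum was 10.8 CPM in mutant 6, with the next mutant at 3.80 CPM. Most of the 10.8 CPM was Flt3, which is also on the leukemia stem and progenitor list and reached 9.69 CPM among mutants. The erythroid sum was 32.8 CPM in control 2, with the next control at 6.32 CPM. In mutants the erythroid sum ran from 8.42 to 35.2 CPM, so control 2 lay within their range and the other controls below it. All 4 tested erythroid genes were above 0 in log2 fold change, and 0 were called. Most of the 32.8 CPM was the globin gene Hbb-bs, which reached 28.0 CPM among controls. Mutant 6 and control 2 were also the highest of their groups for Cybb, while mutant 12 held the median of the mutants, at 27.3 CPM. A link between these sums and Cybb was not tested.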

How the results depend on the processing

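None of the 7 genes was called under any alternative run. The 22 alternatives kept Cybb between -0.92 (total count as a covariate) and -0.54 (without control 2), with adjusted p from 0.149 to 0.982. Cyba, Ncf1, Ncf4 and Rac1 kept their sign in all 22. Rac2 ran from -0.14 to 0.0150 when a mouse was left out and changed sign without control 2. Hvcn1 was at -0.0041 in the second libraries and ran from -0.0018 to 0.14 when a mouse was left out, changing sign without mutant 10 or control 3. Neither ratio changed sign or passed. Over all genes, 9 calls became 88 with DESeq2, 21 with no filter, 62 and 60 with limma-voom on 18 libraries without and with a technical replicate block, 3 in the second libraries, and 0 in the first libraries, at a mean of at least 10 CPM, with the covariate and without the first library of mutant 7, and 0 to 7 with a mouse left out. The causes were not tested. Mice share no numbers across groups, so none were paired.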
